A study of Homo sapiens with 2 samples.

Results

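The genes described here are 10 members of the LIN28 and let-7 circuit and of its oncofetal programme: LIN28A, LIN28B, HMGA1, HMGA2, IGF2BP1, IGF2BP2, IGF2BP3, SALL4, DICER1 and DROSHA. They were taken by name, and every probe set that the array annotation pairs with exactly 1 of these symbols was included, which gave 30 probe sets, out of 19775 genes with such a probe set. The samples are a pair of stable derivatives of C33-A, an established epithelial, adherent cell line from a human cervical carcinoma. The CA9 line carries the full-length human cDNA of CA9, carbonic anhydrase IX, in the vector pcDNA3.0. The vector line carries the empty vector and is otherwise C33-A as well. Growth was in RPMI with fetal bovine serum at 10%, penicillin and streptomycin at 1% and CO2 at 5%, and total RNA was taken on day 4 after seeding. The comparison asks whether these genes were expressed differently in the line with ectopic CA9. There was 1 Affymetrix array per line, so no value has a replicate and no test is given. An effect of CA9 and ordinary variation among cultures of C33-A cannot be told apart. The labels do not state whether either line is 1 clone or a pool.

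LIN28 proteins bind the precursors of let-7 microRNAs through a cold-shock domain and a pair of zinc knuckles, and block their maturation. Terminal uridylyltransferases can then tail the bound precursor, which is degraded. Mature let-7 silences messenger RNAs that are abundant in the embryo and return in many tumours, among them those of LIN28B itself, HMGA2 and the IGF2BP family, so that LIN28 and let-7 hold each other in check. DROSHA and DICER1 are the ribonucleases that cut the primary transcript and the hairpin, in that order, for let-7 and for most other microRNAs.

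The mature let-7 strands, which define this circuit, are given because let-7 recognises its targets through their shared seed. Sites for it in the transcripts of the members were not searched. The family has 12 genes in RefSeq (GRCh38.p14), which give 9 distinct mature 5p sequences of 22 bases. All 9 have the same seed, bases 2 to 8, in capitals.
let-7a: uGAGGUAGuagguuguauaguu
let-7b: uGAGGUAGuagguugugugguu
let-7c: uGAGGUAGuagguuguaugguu
let-7d: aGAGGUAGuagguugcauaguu
let-7e: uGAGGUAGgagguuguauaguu
let-7f: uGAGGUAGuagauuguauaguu
let-7g: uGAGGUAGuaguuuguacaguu
let-7i: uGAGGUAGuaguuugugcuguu
miR-98: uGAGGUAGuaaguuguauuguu
The sequence that pairs with this seed in a target is CUACCUC. Outside the family, MIR4458 and MIR4500 are the only other genes in the table with a mature strand of that seed. Mature microRNAs were not measured by these arrays.

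LIN28 recognises let-7 precursors largely through the letters GGAG in the loop of the hairpin, and these precursors are shown because the family differs in this feature. GGAG lay between the end of the 5p strand and the start of the 3p strand in 9 of the 12 let-7 hairpins. For MIRLET7F2, which has no 3p strand in the table, the search ran to the end of the hairpin. The hairpins of let-7a-3, let-7b and miR-98 had no match in that window. Across 739 microRNA hairpins with both strands in the table, 8.12% held the letters there. The let-7a-2 hairpin lies at chr11:122146522-122146593 on the minus strand, let-7g at chr3:52268278-52268361 on the minus strand, and let-7a-3, without a match, at chr22:46112749-46112822 on the plus strand. GGAG is in capitals.
let-7a-2: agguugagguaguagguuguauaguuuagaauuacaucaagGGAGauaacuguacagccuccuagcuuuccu
let-7g: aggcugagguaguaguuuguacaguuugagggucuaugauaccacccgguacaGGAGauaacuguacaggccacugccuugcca
let-7a-3: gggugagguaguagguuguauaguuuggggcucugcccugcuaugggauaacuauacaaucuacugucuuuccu

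None of the 10 genes was 2-fold apart between the lines. Levels are given as intensity, the linear value of a probe set on an array, and differences as log2 intensity of the CA9 line minus that of the vector line. The floor is an intensity of 40.8, the median over both arrays after leaving out control probe sets. A probe set counted as measurable when at least 1 array exceeded it. A gene was represented by its brightest probe set. By these rules 9 of the 10 genes were measurable, 5 with a difference above 0 and 4 below, and 0 were called at 2-fold or more in either direction. Of all 13823 measurable genes 1.35% were called, so a count of 0 among 9 is near that background. The median difference of the 9 was 0.05, against -0.03 for all measurable genes, and their median distance from 0 was 0.27 against 0.23. The members that stood farthest from 0 were HMGA1 and LIN28B, higher in the CA9 line, and HMGA2 and IGF2BP3, lower.

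**Figure D1:**
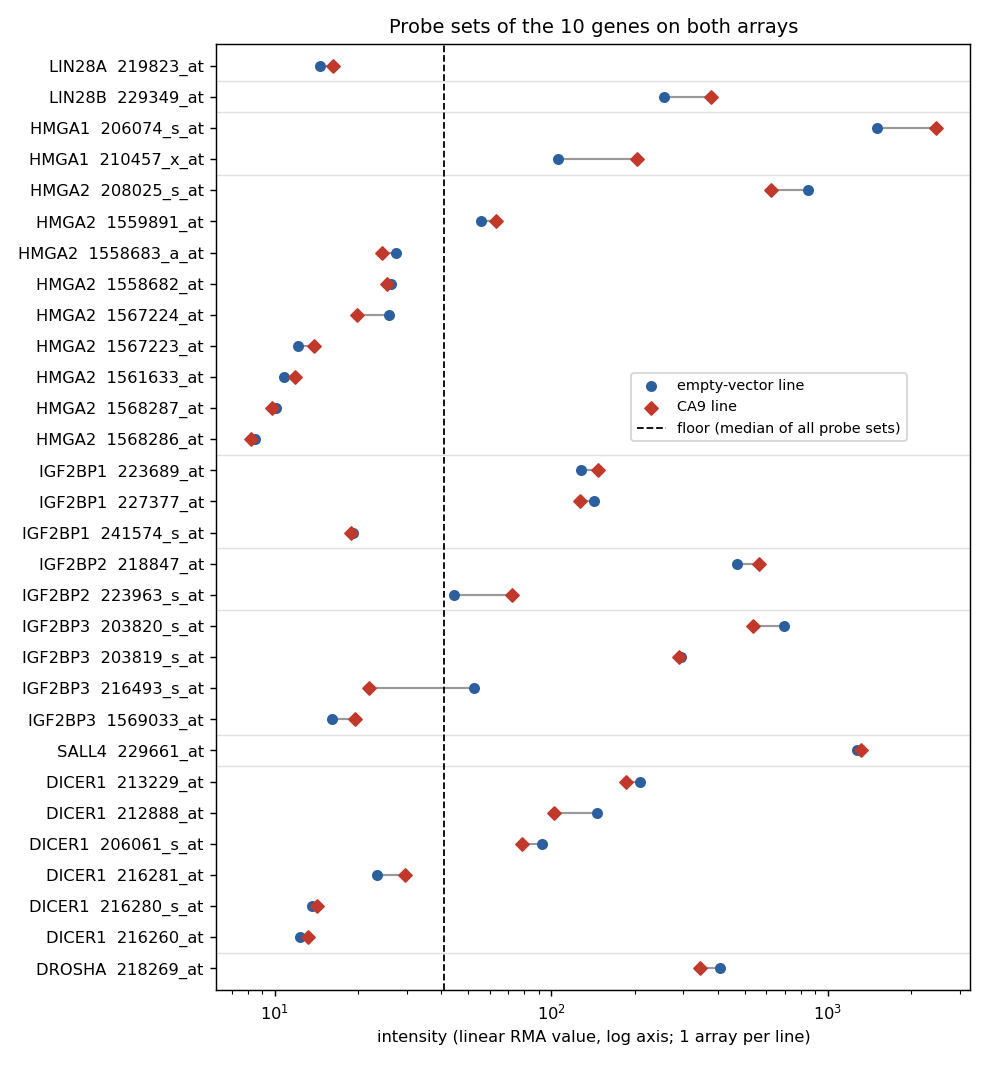
Intensity of each of the 30 probe sets on the array of the CA9 line (diamonds) and of the vector line (circles), on a log axis, with the floor of 40.8 as a dashed line; probe sets are grouped by gene and 1 array stands behind each point. LIN28A and 12 further probe sets lie left of the floor on both arrays, and both HMGA1 probe sets lie higher in the CA9 line.

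Of the 30 probe sets, 16 lay above the floor on both arrays, 1 on the vector array alone and 13 on neither. The 17 measurable ones were split, with 8 higher and 9 lower in the CA9 line. Above the floor on both arrays, no member probe set was 2-fold apart. A single one, of IGF2BP3, passed 2-fold by its measured values, lower with CA9, but its CA9 value lay under the floor, so that the supported bound is 1.29-fold. By measured values 1.53% of all measurable probe sets were at least 2-fold apart and 0.782% at least 2-fold lower. Among members with more than 1 measurable probe set, 6 in all, differences varied within a gene with a pooled SD of 0.40. Over 6186 genes this SD was 0.31. It describes disagreement among probes that read the same RNA on the same array, not replicate error.

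LIN28A and LIN28B, the RNA-binding proteins at the head of the circuit, differed in whether they could be measured. LIN28A, the paralog of pluripotent stem cells, had 1 probe set, with intensities of 16.3 (CA9) and 14.5 (vector). Both values lie below the floor, so no fold is given. LIN28B, the paralog that reappears in many carcinomas, had intensities of 379 with CA9 and 255 with the empty vector, also in 1 probe set. It was 1.49-fold higher in the CA9 line, a difference of 0.57. Of all measurable genes 5.54% had a difference as high or higher.

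HMGA1 and HMGA2 encode small chromatin proteins that bind AT-rich DNA through AT-hooks and bend it. The brightest HMGA1 probe set (206074_s_at) read 2465 with CA9 and 1501 with the empty vector. That is 1.64-fold higher in the CA9 line, a difference of 0.72, and 2.81% of measurable genes were as high or higher. Its second probe set (210457_x_at) had intensities of 203 and 106, a difference of 0.95 and a fold of 1.93, and this value passed 2-fold after quantile normalization (1.01) and after removal of a loess trend (1.02). Both are of kinds, _s_at and _x_at, that can also detect related transcripts, such as copies of the gene elsewhere in the genome.

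HMGA2, a classic let-7 target, had 9 probe sets, of which 2 were measurable and 7 lay below the floor on both arrays, at intensities from 8.18 to 27.5. The brightest (208025_s_at) read 624 with CA9 and 845 with the empty vector, which is 1.35-fold lower and a difference of -0.44. In the other (1559891_at) the intensities were 63.1 and 55.6, a difference of 0.18 in the opposite direction. The direction of HMGA2 therefore rests on 1 probe set named _s_at, and without probe sets of such kinds the gene stood at 0.18. In the brightest probe sets, HMGA1 and HMGA2 were 1.15 apart on the log2 scale of differences.

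**Figure D2:**
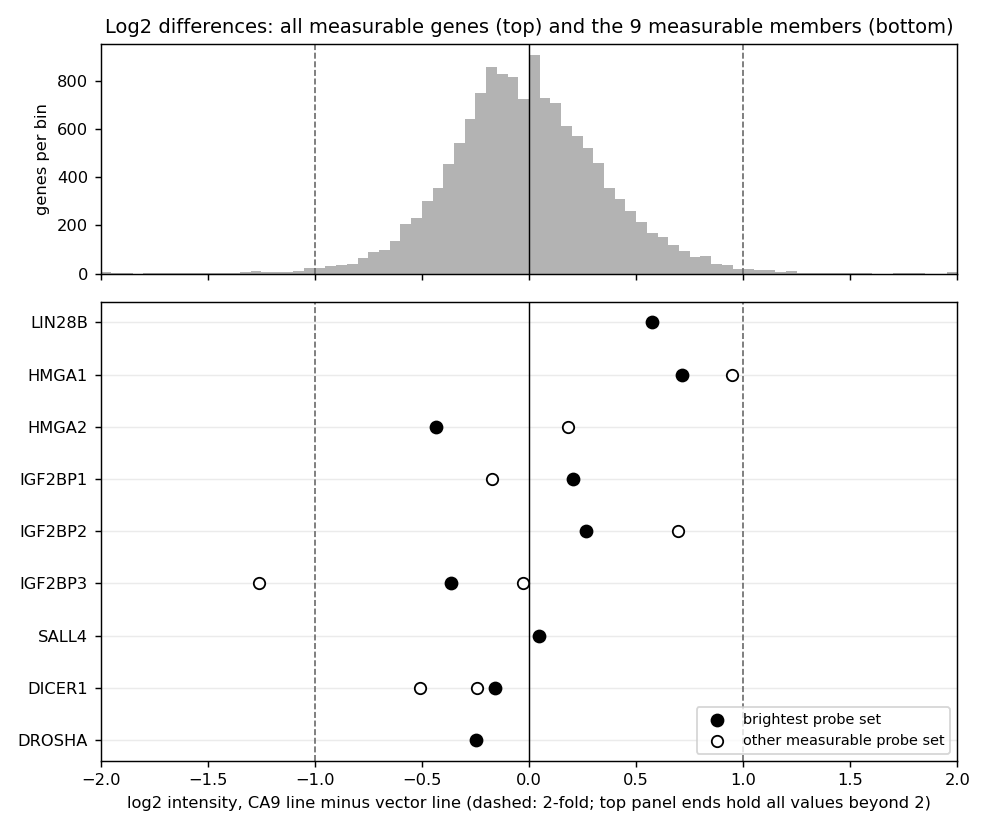
Top, number of measurable genes per bin of log2 difference (CA9 line minus vector line), with values beyond 2 in the end bins; bottom, the same difference for each measurable probe set of the 9 measurable members, filled for the brightest probe set of a gene and open for the others. HMGA1, IGF2BP2 and LIN28B have all their points right of 0, IGF2BP3, DICER1 and DROSHA all left of 0, and HMGA2 and IGF2BP1 have points on both sides.

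The IGF2BP proteins bind messenger RNAs, including that of IGF2, and protect or localise them; they are made in the embryo and again in tumours. For IGF2BP1 the measurable probe sets pointed opposite ways. The brightest (223689_at) read 148 with CA9 and 128 with the empty vector, a difference of 0.21, and another (227377_at) had 127 and 143, a difference of -0.17. The remaining one (241574_s_at) was below the floor, at 18.9 and 19.2. These values leave IGF2BP1 with no common direction, and its mean over all probe sets was 0.00.

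IGF2BP2, the family member that many adult tissues keep, was higher in the CA9 line in both of its probe sets. The intensities were 565 against 469 in the brighter one (218847_at), a difference of 0.27. In the dimmer one (223963_s_at) they were 72.0 against 44.5, a difference of 0.70, with the vector value close to the floor. In the brighter probe set, 20.0% of measurable genes were as high or higher.

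IGF2BP3 was lower in the CA9 line in its 3 measurable probe sets, by amounts that disagreed. The brightest (203820_s_at) read 538 with CA9 and 694 with the empty vector, a difference of -0.37. The next (203819_s_at) had 290.1 and 296, a difference of -0.03. The probe set farthest below 0 (216493_s_at) read 21.9 with CA9, under the floor, and 52.5 with the empty vector. The supported statement is that it was lower by at least 1.29-fold, with the floor standing in for the dim value. Its measured values put it past 2-fold, which the bound does not reach. With the floor at the 75th percentile it was no longer measurable, and with 16 added before log2 its difference fell short of 2-fold. A last one (1569033_at) lay below the floor, at 19.5 and 16.1. In their brightest probe sets IGF2BP2 and IGF2BP3 were 0.63 apart on the log2 scale of differences.

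SALL4, a zinc-finger transcription factor of embryonic stem cells and fetal liver, had 1 probe set, with intensities of 1316 (CA9) and 1274 (vector). The difference was 0.05, and it was -0.01 with the array medians set equal, so SALL4 had no direction that held across scalings. Of all measurable genes 88.9% stood at least as far from 0.

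The processing enzymes were both lower in the CA9 line in every measurable probe set. DROSHA, the nuclear nuclease that cuts primary transcripts, read 345 with CA9 and 408 with the empty vector in its 1 probe set, a difference of -0.25. DICER1, the cytoplasmic nuclease that cuts hairpins, had 187 against 209 in its brightest probe set (213229_at), a difference of -0.16. Its other measurable probe sets had 103 against 146 (212888_at, -0.51) and 78.2 against 92.6 (206061_s_at, -0.24). A further 3 lay below the floor on both arrays, between 12.3 and 29.6, each with a slightly higher value in the CA9 line. Distances as large as that of DROSHA were seen in 46.5% of measurable genes, and as large as that of the brightest DICER1 probe set in 64.0%.

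**Figure D3:**
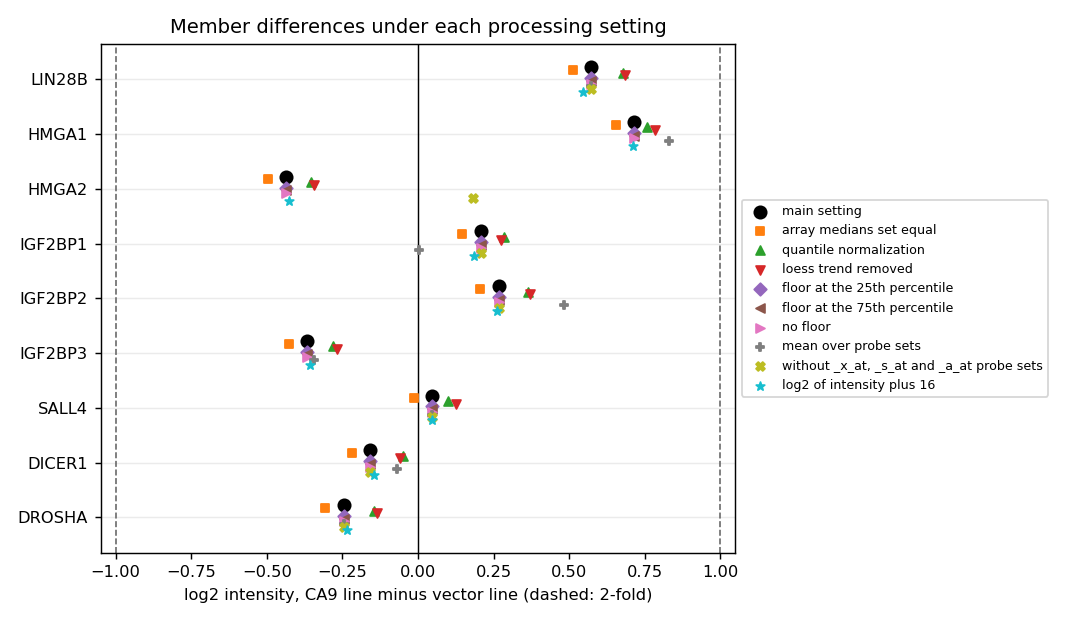
Log2 difference of each measurable member (CA9 line minus vector line) under the main setting (large black circles) and 9 alternatives, with 2-fold as dashed lines; HMGA1, HMGA2 and IGF2BP3 lack a point where the setting left them without a measurable probe set or mean. LIN28B runs from 0.51 to 0.68 and HMGA1 from 0.65 to 0.83, no point passes 2-fold, and SALL4 and HMGA2 each have 1 point on the other side of 0.

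The order of the differences was HMGA1 (0.72), LIN28B (0.57), IGF2BP2 (0.27), IGF2BP1 (0.21), SALL4 (0.05), DICER1 (-0.16), DROSHA (-0.25), IGF2BP3 (-0.37) and HMGA2 (-0.44). Neighbours in this order were all less than 0.31 apart, the SD between probe sets of a gene, which is a measure of probe disagreement; whether the genes differ in order between cultures cannot be told from 1 array per line. Over the 9 alternatives, 7 of the 9 genes kept their sign in each alternative that gave a value. The exceptions were SALL4 with equal array medians and HMGA2 without _x_at, _s_at and _a_at probe sets. HMGA1 and IGF2BP3 gave no value in that last setting. IGF2BP1 is counted as keeping its sign, but its mean over probe sets was 0.00 and its measurable probe sets had opposite signs. Part of the stability of sign was fixed in advance. A change of floor left each difference as it was, and adding 16 before log2 cannot change the sign within a probe set. For genes with 1 probe set, averaging or choosing among probe sets could not change the sign either.

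The list of let-7 host transcripts held 1 called gene among 5 measurable, MIR100HG, lower in the CA9 line, where 0.694% of all measurable genes were called lower. This list, like the others here, was chosen with earlier results of these data known. No conclusion about let-7 hosts as a group is drawn from the count. Of the 10 transcripts listed, 7 had a probe set. Of the 5 measurable ones 1 lay above 0 and 4 below, with a median difference of -0.10. In RefSeq the hairpins of let-7a-2, miR-100 and miR-125b-1 lie within the span of MIR100HG. Its bright probe set (225381_at) read 11.9 with CA9, under the floor, and 217 with the empty vector, which makes it at least 5.32-fold lower. The second (241975_at) lay below the floor on both arrays, at 16.8 and 13.0, so the difference rests on 1 probe set. The strands encoded there beside let-7a are shown with their seeds in capitals, which differ from that of let-7.
miR-100: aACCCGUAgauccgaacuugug
miR-125b: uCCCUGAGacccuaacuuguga
Levels of these microRNAs are not known from a host transcript.

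None of the other hosts was 2-fold apart. MIRLET7BHG, whose span holds let-7a-3 and let-7b, both without GGAG in the loop, had 119.8 against 88.3 in its brighter probe set, a difference of 0.44, and 63.0 against 65.3 in the other (-0.05). WDR82, which contains let-7g, had 1257 against 1408 (-0.16), and HUWE1, which contains let-7f-2 and miR-98, the latter also without GGAG there, had 3672 against 3926 (-0.10) in its brightest probe set. SPACA6, which contains let-7e, had 48.6 against 49.1. MIR99AHG, the host of let-7c, lay below the floor on both arrays in all its probe sets, and so did LINC01465, which was on the list although no let-7 hairpin lies within its RefSeq span. The probe set that the annotation pairs with MIRLET7D had 49.9 against 60.4, a difference of -0.27; it was added after its value was seen, and an array of this kind reads a longer transcript there and not the mature strand.

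Genes of microRNA processing and of let-7 decay gave no call, which at the 1.35% of all measurable genes called is near background for a list of this size. Of 32 listed, 28 were measurable, 13 above 0 and 15 below, with a median of -0.07. TUT4 and TUT7, the uridylyltransferases that LIN28 can recruit, had differences of 0.05 (249 against 241) and -0.59 (91.7 against 139), TUT7 in a probe set named _s_at. DIS3L2, the exonuclease that degrades tailed let-7 precursors, had 0.12 in its brightest probe set, with 69.7 against 64.0. Its other measurable probe sets, each above the floor on 1 array, were lower with CA9 by at least 1.12-fold and higher by at least 1.09-fold. XPO5, which exports hairpins from the nucleus, was at -0.10 (570.1 against 611) in its brightest probe set. Its others, above the floor on both arrays, were at 0.17 and 0.05. AGO2, the slicer that carries the mature strand, was at 0.03 (360.2 against 354). Farthest from 0 beside TUT7 were AGO4, lower with CA9 by at least 1.12-fold against the floor, and the helicase gene DDX5 at -0.56. The partner of DROSHA, DGCR8, was not analysed here. TRIM71, a let-7 target and stem cell protein, lay below the floor on both arrays.

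Among other reported let-7 targets, 42 of 57 were measurable, 20 above 0 and 22 below, with a median difference of -0.06. CCND2, cyclin D2, was called higher, at 105 against 36.1, which is at least 2.57-fold against the floor, but its other measurable probe set had 54.8 against 52.4 (0.07). THBS1, thrombospondin, was called lower, at 119 against 376, and its other measurable probe sets were lower too. UHRF2, a chromatin-binding ubiquitin ligase, was next farthest from 0 at -0.72, with 108 against 178. The called share was thus 1 gene in each direction, where 0.651% of all measurable genes were called higher and 0.694% lower.

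**Figure D4:**
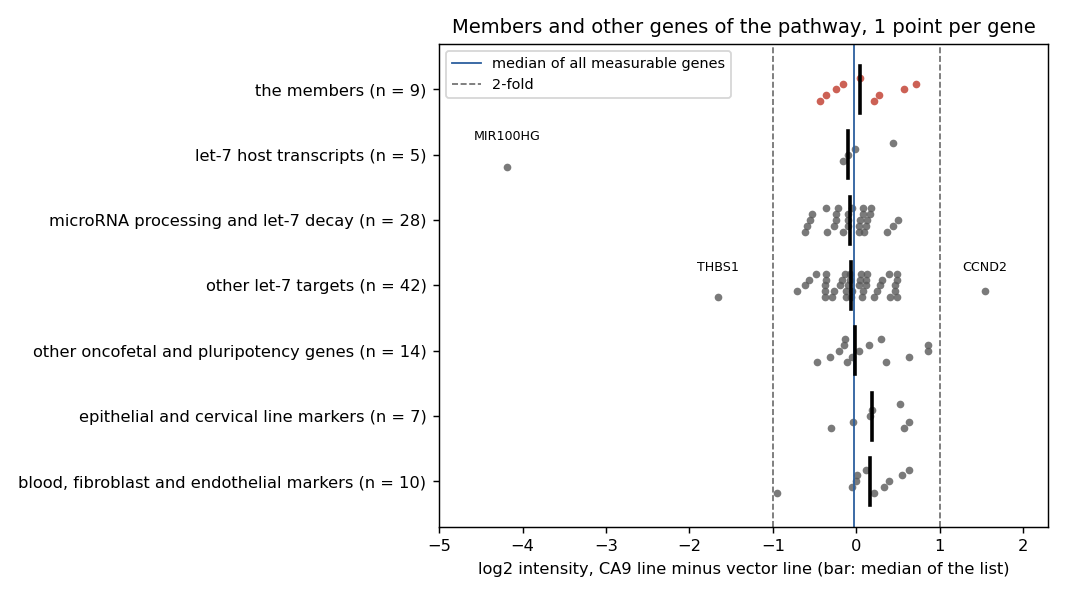
Log2 difference (CA9 line minus vector line) of each measurable gene of the members and of 6 other lists, 1 point per gene at its brightest probe set, with the list's median as a bar, the median of all measurable genes as a blue line and 2-fold as dashed lines. MIR100HG, THBS1 and CCND2 are the only points beyond 2-fold. Points are drawn at measured values also where 1 array lies below the floor. Among the points beyond 2-fold this holds for MIR100HG (CA9 line) and CCND2 (vector line).

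Other oncofetal and pluripotency genes gave no call either, again near the background of 1.35%. Of 30 listed, 14 were measurable, 7 on each side of 0, with a median of -0.01. SOX2, a pluripotency and neural stem cell factor, was at 2457 against 2399 (0.03) in its brightest probe set. Its others ran from -0.36 to 0.03. NANOG lay below the floor on both arrays in its 2 probe sets. KLF4 and DPPA2, both under the floor with the empty vector, were higher with CA9 by at least 1.42-fold and 1.57-fold, and NANOS3 was at 0.64, with 89.0 against 57.3. In all, 12 genes of this list with a probe set lay below the floor, as LIN28A did.

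Markers and controls described the cells and the arrays. Of 11 epithelial and cervical line markers 7 were measurable, 5 above 0 and 2 below, with a median difference of 0.18. KRT14 was at 0.63, with 64.4 against 41.7, the vector value close to the floor. KRT8 was at 0.57 (101 against 68.3) and KRT18 at 0.52 (80.2 against 56.1). KRT7, brighter than these, was at 0.16, with 193 against 172. Against the floor, KRT19 was higher with CA9 by at least 1.10-fold and KRT5 lower by at least 1.17-fold. CDKN2A was at -0.04. EPCAM and CDH1, defining epithelial genes, lay below the floor on both arrays. Of 14 markers of blood, fibroblast and endothelial cells 10 were measurable, with a median of 0.16. Of these, 7 lay above 0 and 2 below, and DCN was equal on both arrays. The intensities of the 10 summed to 3328 (CA9) and 3041 (vector). Most of that sum is the collagen gene COL3A1, at 2538 and 2339, in a probe set named _s_at. CD14 was higher with CA9 by at least 1.40-fold, PTPRC lower by at least 1.42-fold, and THY1 was at 0.55. The hybridisation spike-ins were higher on the CA9 array by a median of 0.41, in 17 of 18 probe sets, and all 3 probe sets of 18S ribosomal RNA were lower there, with a median difference of -1.69. Their part in the member differences was not tested. The transgene CA9 itself was not analysed here, so its level does not check the labels.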

How the data were processed

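The authors deposited 1 intensity per probe set and array, with RMA named in the submitters' processing notes; its version, background setting and probe definitions are not given in the sources used here. RMA output is usually log2, but the deposited intensities are linear (6.79 to 17091 for CA9, 7.19 to 16842 for the vector), so log2 was taken without a pseudocount. Median intensities were 41.8 and 40.0. The number of arrays limits the precision.

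Of 54675 probe sets the platform annotation lists 42898, and 41097 have 1 gene symbol; the 1801 with several were not named. Entrez identifiers of 41043 matched RefSeq (GRCh38.p14), which updated symbols. Sequences are from RefSeq; all 12 let-7 family genes matched. No build belongs to the array values.

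With 1 array per line, genes were called by size, at 2-fold. The members and lists were chosen with earlier results of these data known. Named genes were all members, then each list's called genes, filled to 3 with those farthest from 0, and listed genes that act directly with a member. Alternatives covered scaling, floor, probe set choice and a pseudocount of 16. The calling rule was tested on simulated data. These held known shifts without noise in genes well above the floor, so they check only the arithmetic of the rule. Python 3.11.15, numpy 2.4.6, pandas 2.3.3, statsmodels 0.14.6 and matplotlib 3.10.9 were used.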

Additional observations from a re-analysis of the deposited data

How the results depend on the processing

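Under 9 alternatives the count of members at least 2-fold apart stayed at 0, with 7 to 10 members measurable, and the members' median difference ran from -0.01 to 0.18. The count of member probe sets at least 2-fold apart by measured values, 1, was 2 after quantile normalization and after loess removal, where 210457_x_at of HMGA1 joined, and 0 with the floor at the 75th percentile or with 16 added before log2. HMGA2 stood at 0.18 without _x_at, _s_at and _a_at probe sets, and its mean over probe sets lay below the floor. All genes called higher numbered 56 with the higher floor, 44 with averaged probe sets and 42 with 16 added, and those called lower 48 and 51 in the latter settings. With equal array medians, which shifts differences by 0.06, calls were 69 higher and 123 lower, so that 35.9% were higher in place of 48.4%. Among let-7 targets, 0 were called higher with the higher floor, with averaged probe sets (CCND2 at 0.49) or without _x_at, _s_at and _a_at probe sets, and 0 lower with averaged probe sets (THBS1 at -0.89). Of the blood, fibroblast and endothelial markers 1 was called lower after each of 3 rescalings. MIR100HG stood at -1.91 as an average and at -3.06 with 16 added. For changes in scaling the cause was not tested; averaging brings in dim probe sets and the higher floor leaves fewer genes. No paired analysis was possible because each line has 1 array. Values near the floor carry the least signal over background, which limits LIN28A and 12 other probe sets.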
